A study of Mus musculus with 8 samples.

Results

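This account describes 40 mouse genes of protein folding in the endoplasmic reticulum (ER) and of the unfolded protein response, in embryonic stem cells with and without a hairpin against Mkrn1. The genes were taken as a given list, whose rule names function and no measured value, though the list was chosen with earlier results of these data known. They were read from the probe set with the highest mean for each symbol. All 40 were measured among 19937 genes with a symbol of their own, 38 of them by a single probe set. Ero1l and Ero1lb were found under their current symbols, Ero1a and Ero1b.

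RNA came from the mouse embryonic stem line R1, which is male and of 129X1 x 129S1 background. The cells were grown with LIF and 15% serum on a gelatin-coated surface. The 4 control samples (shGFP 1, 3, 5 and 7) carried pLKO.1 with a hairpin against GFP, a gene these cells do not have. The 4 knockdown samples (shMKRN1 2, 4, 6 and 8) carried pLKO.1 with a hairpin against MKRN1, an RNA-binding ubiquitin ligase. Both groups received 2 µg of plasmid by lipid transfection, were selected over 4 days with puromycin at 2 µg/mL, and RNA was taken on day 6. Each group is a population under a single hairpin sequence. The labels do not say whether its samples were transfected separately, so the p-values speak only to the spread among these 8 samples, and that spread may be technical.

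The ER folds and glycosylates secreted and membrane proteins. Its Hsp70 chaperone BiP, encoded by Hspa5, holds unfolded chains together with co-chaperones, disulfide isomerases build their disulfide bonds, and the lectins calnexin and calreticulin retain glycoproteins until they are folded. Chains that fail are sent back to the cytosol for degradation, which is called ERAD. When unfolded protein gathers, the sensors IRE1, ATF6 and PERK (Ern1, Atf6 and Eif2ak3) raise the genes of this machinery. They do so mainly through cleaved ATF6 and spliced XBP1, which act at the ER stress elements of target promoters, and PERK acts through ATF4. All of these steps lie after transcription of the sensors, so the mRNA level of a sensor or of unspliced and spliced Xbp1 together does not read their activity.

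The promoter letters of the list are shown first, since the elements through which the unfolded protein response is known to act lie there. Of the 13 ER genes with such an element, 3 rose in the knockdown and 10 did not pass the test. Of all measured genes 3.66% rose by the same test, and of those above the median level 5.48%. The motifs were chosen with earlier results of these data known, and a link between element and change was not tested. Promoters of 300 bases (250 before to 50 after the start, RefSeq, GRCm38.p6) were at hand for 34 of the 40 genes and for 15562 of the measured genes. Both strands were searched for 4 motifs: ERSE (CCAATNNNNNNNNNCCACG), ERSE-II (ATTGGNCCACG), the core of the UPRE (TGACGTGG), which XBP1 is known to bind, and CARE (TTGCATCA), a type of element bound by ATF4 with C/EBP partners. ERSE was present in 10 of 34 ER genes (29.4%) and in 21 of 15562 genes (0.135%), so that 10 of the 21 genes with it are on the list. As the list holds genes of the response for which these elements are known, that share is not read as a result of these data. ERSE-II was present in 2 ER genes, Dnajb11 and Herpud1, and in 9 genes in all (0.0578%). The UPRE core was found in 1 ER gene, Txndc5, against 0.912% of genes, and CARE in 1, Herpud1, against 0.823%. The 15 matches fell in 13 genes, and none overlapped another. A match is a description of letters, and binding was not measured.

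The stretches below run 5′ to 3′ on the strand of the gene, with the matched element in capitals. They show the 3 genes that rose (Dnajb11, Herpud1 and Creld2), and beside them Hspa5, Pdia6 and Canx, which hold ERSE and did not pass the test. In Creld2 the element lies on the opposite strand and reads from CGTGG to ATTGG. The site of Dnajb11 lies just after the annotated start, from base 8 to base 18, and the others lie before it.
Dnajb11 ERSE-II, chr16:22857843-22857871, plus strand: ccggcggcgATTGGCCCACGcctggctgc
Herpud1 ERSE-II, chr8:94386357-94386407, plus strand: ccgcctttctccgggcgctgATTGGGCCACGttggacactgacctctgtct
Herpud1 CARE, chr8:94386297-94386344, plus strand: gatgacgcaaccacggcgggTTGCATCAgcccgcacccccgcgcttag
Creld2 ERSE, chr15:88819500-88819558, plus strand: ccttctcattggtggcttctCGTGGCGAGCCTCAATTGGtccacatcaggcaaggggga
Hspa5 ERSE, chr2:34772005-34772063, plus strand: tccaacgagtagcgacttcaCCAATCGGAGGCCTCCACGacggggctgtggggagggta
Pdia6 ERSE, chr12:17266471-17266529, plus strand: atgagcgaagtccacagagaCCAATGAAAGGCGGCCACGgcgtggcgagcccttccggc
Canx ERSE, chr11:50325780-50325838, minus strand: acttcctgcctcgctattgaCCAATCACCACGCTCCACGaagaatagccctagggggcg

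Among the 10 ER genes with ERSE, 1 rose (Creld2) and none fell, with changes between -0.12 (Derl3) and 0.23 (Creld2) and a median of 0.07 on the log2 scale. Both ER genes with ERSE-II rose, a count of only 2. Outside the list, 2 of 11 genes with ERSE and 1 of 7 with ERSE-II rose, with median changes of -0.03 and 0.10. Hsp90b1 holds 2 ERSE matches and changed by 0.05 (95% interval -0.08 to 0.17, not past the threshold).

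**Figure D1:**
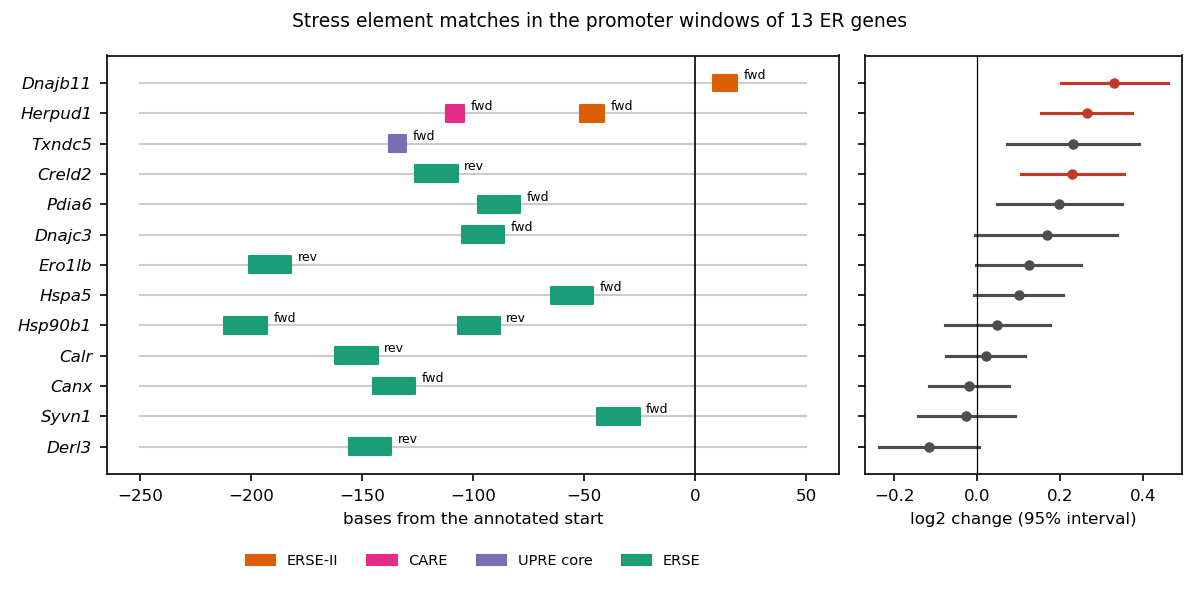
Left, position of each motif match in the promoter windows of the 13 ER genes that hold one, in bases from the annotated start, with its orientation to the gene (fwd or rev). Right, the log2 change of the same gene in shMKRN1 against shGFP with its 95% interval (4 arrays against 4), red where the limma adjusted p was under 0.05; the genes are ordered by change, with the ERSE-II genes Dnajb11 (0.33) and Herpud1 (0.26) highest, and the ERSE genes run from Creld2 (0.23) to Derl3 (-0.12), the lowest.

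The hairpin lowered its target: Mkrn1 lay between 10.34 and 10.51 on the log2 scale in shGFP and between 9.81 and 9.88 in shMKRN1, which left 66.2% of the control level (95% interval 61.0% to 71.7%; exact permutation p = 0.0286, the smallest possible with 70 assignments). Of all genes, 729 were higher and 167 lower in shMKRN1 at a limma adjusted p of 0.05. All 10 markers of embryonic stem cells lay above the range of olfactory and vomeronasal receptors, genes that are silent in most tissues (95% of them were under 6.5). Their mean lay between 11.45 and 11.54 in shGFP and between 11.46 and 11.54 in shMKRN1. Of these 10, Nanog, a pluripotency factor, alone passed the test and rose by 0.25 (limma adjusted p = 0.0256, lost without shGFP 3 or shMKRN1 2, 4 or 6 at up to 0.0974). The mean was higher in shMKRN1 for only 3 of the 10, and the median change was -0.009, with Utf1 lowest (-0.145). An unadjusted p under 0.05 by limma was found in 3 of them, 2 higher and 1 lower. Markers of primitive and parietal endoderm, a secretory cell type, had means of 8.13 to 8.32 in shGFP and 8.11 to 8.29 in shMKRN1, with 12 of 13 above the receptor range (not Afp) and none past the test (2 had an unadjusted p under 0.05). Fibroblast markers had means of 6.81 to 6.95 in shGFP and 6.87 to 7.05 in shMKRN1, with 8 of 11 above that range (not Postn, Prrx1 and Lum). Of these 11, Col1a1 (0.37) and Pdgfrb (0.35) rose, a share of 18.2% beside 3.66% of all genes. Neither passed the test when any 1 array other than shGFP 7 was left out. The mean was higher in shMKRN1 for 8 of the 11 and lower for Postn (-0.13), Prrx1 (-0.075) and Lum (-0.023), with a median change of 0.08. The part of these cell types in the changes of ER genes was not tested. In bulk samples, fewer cells of a type and less RNA per cell cannot be told apart.

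Of the 40 ER genes, 3 rose in the knockdown and none fell. These were the co-chaperone gene Dnajb11, the ERAD gene Herpud1 and the chaperone-associated gene Creld2, each by 1.17-fold to 1.26-fold. That is 7.5% of the list against 3.66% of all genes higher, and 0 against 0.838% lower (limma; no member was lower at an unadjusted p under 0.05 either). As 39 of the 40 genes lie above the median level of all genes, the nearer comparison is with the genes above that level, 5.48% of which passed the test as higher. Against either background the share is small in number, 3 genes, and nothing particular to the list is read from it. The median change was 0.05, beside 0.01 for all genes and 0.04 for genes above the median level. The mean was higher in shMKRN1 for 28 of 40 ER genes (70%), beside 52.8% of all genes and 63.4% of those above the median level. In 9 of the 40 (22.5%) every shMKRN1 array lay above every shGFP array, beside 10.6% of all genes, and in none did every one lie below, beside 3.51%. These shares were not computed for genes above the median level, so the nearer comparison is missing and nothing particular to the list is read from the 22.5%. An unadjusted p under 0.05 was found for 10 of 40 (25%), all higher. In either direction such a p was found for 19.5% of all genes and 27.3% of those above the median level, and with the higher mean in shMKRN1 for 13.7% and 21%.

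Leaving out 1 array at a time changed the count. It was 0 without shMKRN1 2, 1 without shGFP 1 or shMKRN1 6 (Dnajb11 in both), and 2 or 3 without each other array. The genes were not always the same. Without shGFP 3, Sil1 passed (limma adjusted p = 0.0492) while Herpud1 and Creld2 did not. Without shGFP 5, Txndc5 passed (0.0229) while Creld2 did not. The count was 8 of 39 when only genes above the median level were tested, where 12.9% of genes were higher. It was 7 with array weights, where 9.7% were. With shGFP 7 and shMKRN1 8 left out together, it was 3 again, the same genes, and the median change 0.06.

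The 3 genes that rose were followed array by array. Dnajb11 encodes ERdj3, a soluble J-domain partner that hands unfolded chains to BiP. It lay at 9.25, 9.28, 9.34 and 9.18 in shGFP 1, 3, 5 and 7 and at 9.65, 9.66, 9.57 and 9.50 in shMKRN1 2, 4, 6 and 8. Every knockdown array was above every control array, with shGFP 7 and shMKRN1 8 lowest in their groups. The means were 9.26 ± 0.069 and 9.59 ± 0.075 (SD, n = 4 each), a change of 0.33 (SE 0.058) or 1.26-fold (95% interval 1.15 to 1.37; limma adjusted p = 0.0139). The call was kept in 7 of the 8 fits that left out 1 array, and without shMKRN1 2 the adjusted p was 0.0524.

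Herpud1 encodes a membrane protein that assembles the HRD1 ligase complex of ERAD, and is a known target of both the ATF6 and the PERK branch. Its levels were 8.96, 9.02, 9.01 and 8.99 in shGFP 1, 3, 5 and 7, the tightest controls of the 3 genes. In shMKRN1 2, 4, 6 and 8 they were 9.32, 9.18, 9.29 and 9.23. The groups did not overlap, and the means differed by 0.26 (SE 0.050) or 1.2-fold (95% interval 1.11 to 1.296; limma adjusted p = 0.0184). This call was lost without shGFP 1 (0.0543), shGFP 3 (0.0605), shMKRN1 2 (0.0637) or shMKRN1 6 (0.0735).

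Creld2 is a stress-induced ER protein with EGF-like repeats that is thought to help disulfide bond formation. Its arrays read 10.74, 10.89, 10.85 and 10.89 in shGFP 1, 3, 5 and 7 and 11.11, 11.12, 11.06 and 10.99 in shMKRN1 2, 4, 6 and 8. The groups did not overlap, with shMKRN1 8 nearest to the controls. The change was 0.23 (SE 0.056) or 1.17-fold (95% interval 1.08 to 1.28; limma adjusted p = 0.0486). It passed the test in 1 of the 8 fits with an array left out, that without shMKRN1 8, and the adjusted p was between 0.053 (without shGFP 7) and 0.136 (without shMKRN1 4) in the others. Adjusted over every probe set, it was 0.0948. Its relative Creld1, a membrane protein, lay at 7.93 ± 0.10 in shGFP and 7.87 ± 0.13 in shMKRN1.

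**Figure D2:**
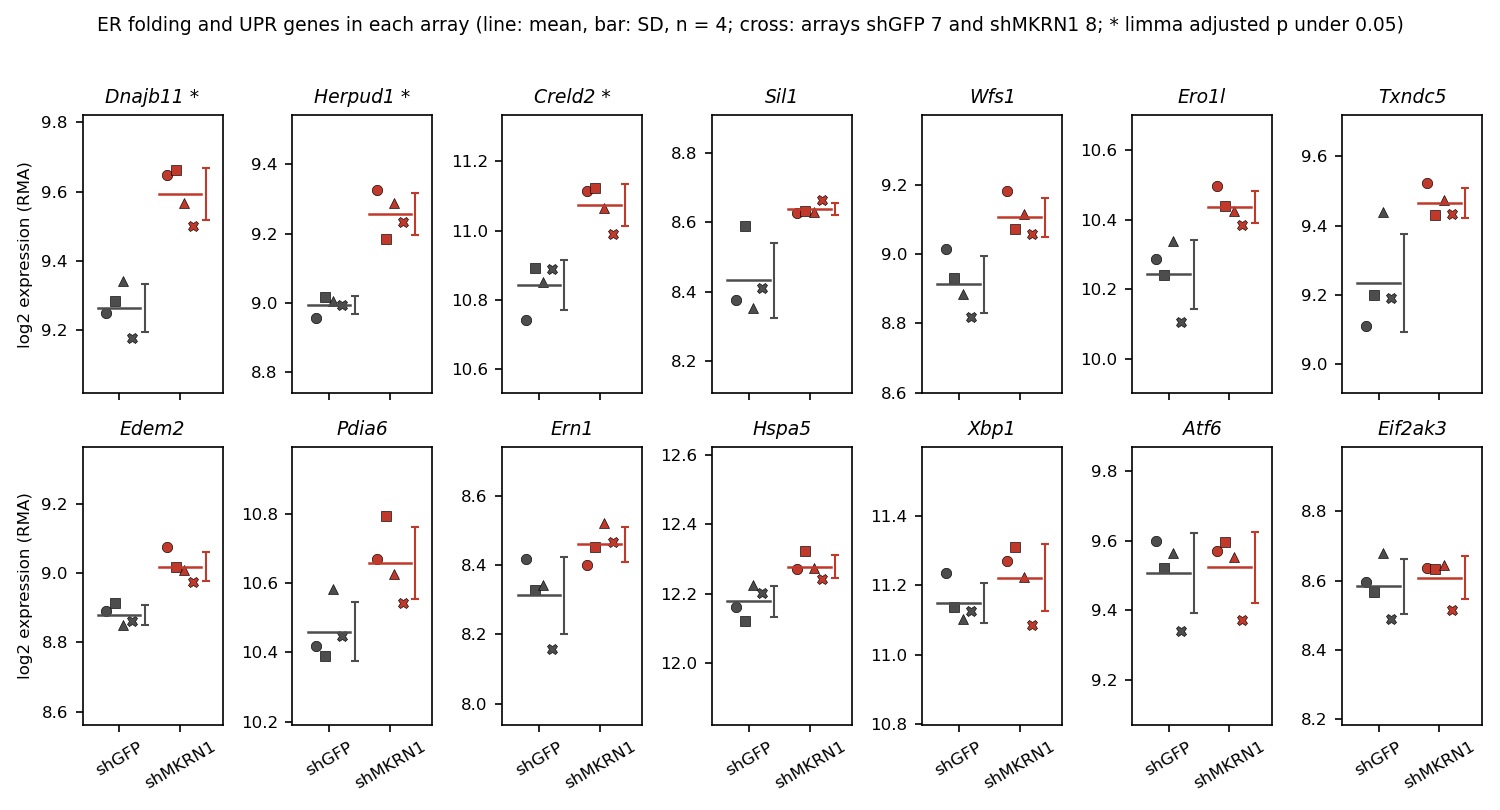
Log2 expression in each array for the 10 ER genes with an unadjusted p under 0.05 and for Hspa5, Xbp1, Atf6 and Eif2ak3; lines are group means, bars SD (n = 4), crosses the arrays shGFP 7 and shMKRN1 8, and stars mark a limma adjusted p under 0.05. Each panel spans 0.8 log2 units. The groups do not overlap in Dnajb11, Herpud1 and Creld2, nor in Sil1, Wfs1, Ero1l, Edem2 and Hspa5, which did not pass the test. In Atf6 both crosses lie below all other arrays (9.34 and 9.37).

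Among the sensors and factors none passed the test. Ern1, the gene of IRE1, lay at 8.42, 8.33, 8.34 and 8.16 in shGFP 1, 3, 5 and 7 and at 8.40, 8.45, 8.52 and 8.47 in shMKRN1 2, 4, 6 and 8. The groups overlapped through shGFP 1, and the change was 0.15 (SE 0.063; 95% interval 0.01 to 0.29; limma adjusted p = 0.232). Atf6 read 9.60, 9.52, 9.57 and 9.34 in shGFP and 9.57, 9.60, 9.55 and 9.37 in shMKRN1. Its change of 0.02 had an interval of -0.15 to 0.18, and the low array of each group was farther from its group than the groups were from each other. Eif2ak3, the gene of PERK, read 8.596, 8.57, 8.68 and 8.49 in shGFP and 8.64, 8.63, 8.65 and 8.52 in shMKRN1, a change of 0.03 (-0.10 to 0.15). Xbp1, the factor whose mRNA IRE1 splices, read 11.23, 11.14, 11.10 and 11.13 in shGFP and 11.27, 11.31, 11.22 and 11.09 in shMKRN1. The change was 0.07 (-0.06 to 0.21), with shMKRN1 8 below all 4 controls. Crebrf, a regulator that lowers the transcription factor CREB3, lay at 8.19 ± 0.18 in shGFP and 8.06 ± 0.16 in shMKRN1. Its change (-0.14, interval -0.36 to 0.09) was the most negative on the list.

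Besides Dnajb11 and Creld2, the chaperone group held 9 genes that did not pass. Hspa5, the gene most used to read ER stress, read 12.16, 12.12, 12.22 and 12.20 in shGFP 1, 3, 5 and 7 and 12.27, 12.32, 12.27 and 12.24 in shMKRN1 2, 4, 6 and 8. All knockdown arrays were above all controls, though the nearest arrays, shGFP 5 and shMKRN1 8, differed by little. The change was 0.10 (SE 0.048; interval -0.01 to 0.21; limma adjusted p = 0.287), or 1.07-fold with an upper bound of 1.15-fold. Sil1, the nucleotide exchange factor of BiP, read 8.38, 8.59, 8.35 and 8.41 in shGFP and 8.63, 8.63, 8.63 and 8.66 in shMKRN1. Those groups did not overlap either, and the controls were the more spread, owing to shGFP 3 (0.21, SE 0.060; limma adjusted p = 0.0872, and 0.0492 without shGFP 3). Dnajc3, the inhibitor of PERK known as P58IPK, lay at 9.11 ± 0.052 and 9.28 ± 0.16 (0.17, interval -0.01 to 0.34). Hyou1, a large Hsp70 relative, changed by 0.09 (-0.02 to 0.20), and Hsp90b1, the gene of GRP94, by 0.05. Of Dnajb9, a co-chaperone gene, and the lumenal factor genes Sdf2l1 and Manf, Dnajb9 changed by -0.07 (-0.27 to 0.13), Sdf2l1 by 0.01 (-0.11 to 0.12) and Manf by -0.01 (-0.12 to 0.10).

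In the disulfide and proline isomerase group 0 of 9 genes passed the test, and 3 had an unadjusted p under 0.05, all higher. Txndc5 (ERp46), an isomerase with thioredoxin domains, read 9.11, 9.20, 9.44 and 9.19 in shGFP 1, 3, 5 and 7 and 9.52, 9.43, 9.47 and 9.43 in shMKRN1 2, 4, 6 and 8. Only shGFP 5 reached the knockdown arrays, and without it the adjusted p went from 0.104 to 0.0229 (0.23, SE 0.071). Ero1l, an oxidase that recharges the isomerases and also responds to hypoxia, read 10.29, 10.24, 10.34 and 10.11 in shGFP and 10.50, 10.44, 10.42 and 10.38 in shMKRN1. These groups did not overlap (0.19, SE 0.060; limma adjusted p = 0.104). Pdia6, which also damps IRE1, read 10.42, 10.39, 10.58 and 10.45 in shGFP and 10.67, 10.79, 10.63 and 10.54 in shMKRN1, with shGFP 5 above shMKRN1 8 (0.20, SE 0.067; adjusted p = 0.134).

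The other isomerases were closer to their controls. Ero1lb, the second oxidase, changed by 0.12 (-0.002 to 0.25) at a level of 6.73 in shGFP, little above the receptor range, and Pdia5 by 0.13 (-0.05 to 0.30). The abundant isomerase genes P4hb (0.01, interval -0.10 to 0.11), Pdia3 (-0.10, -0.28 to 0.08) and Pdia4 (-0.04, -0.16 to 0.08) did not pass. A further probe set of Pdia4 had a difference of -0.13. Ppib, the ER cyclophilin that isomerises proline bonds, changed by -0.001 (-0.14 to 0.13).

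The lectin and glycan check group held Edem2, a mannosidase that marks misfolded glycoproteins, as its 1 gene of 6 with an unadjusted p under 0.05. It read 8.89, 8.92, 8.85 and 8.86 in shGFP and 9.08, 9.02, 9.01 and 8.97 in shMKRN1. The arrays of both groups were tight and did not overlap, and the change was 0.14 (SE 0.047; limma adjusted p = 0.129). Its relatives Edem1 (-0.003, interval -0.14 to 0.13) and Edem3 (-0.07, -0.24 to 0.09) did not pass, and the differences between these relatives were not tested. The lectin genes Calr and Canx were the most even of the list, with SDs of 0.012 and 0.012 for Calr and 0.014 and 0.009 for Canx. Calr changed by 0.02 (-0.08 to 0.12) and Canx by -0.02 (-0.12 to 0.08). Uggt1, which returns unfolded glycoproteins to these lectins, changed by 0.05 (-0.08 to 0.18).

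The translocon genes Sec61a1 and Sec61b, whose products form the channel into the ER, changed by 0.08 (-0.03 to 0.18) and 0.07 (-0.11 to 0.25). The other probe sets of Sec61b differed by 0.005 and 0.05. Besides Herpud1, 5 ERAD genes did not pass. Derl1, a channel protein, lay between 9.80 and 9.88 in shGFP and between 9.90 and 10.03 in shMKRN1, without overlap (0.10, interval -0.01 to 0.21). Its relative Derl2 changed by 0.04 (-0.21 to 0.28) with the widest interval of the list, and Derl3 by -0.12 (-0.24 to 0.003). The ligase gene Syvn1 (HRD1) changed by -0.03 (-0.14 to 0.09) and its adaptor Sel1l by 0.04 (-0.10 to 0.18), and for both partners of Herpud1 in this complex the interval lay below a 1.2-fold rise.

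Wfs1, the gene of wolframin, an ER membrane protein of calcium balance whose loss causes Wolfram syndrome, read 9.02, 8.93, 8.88 and 8.82 in shGFP 1, 3, 5 and 7. It read 9.18, 9.07, 9.11 and 9.06 in shMKRN1 2, 4, 6 and 8, again without overlap. The change was 0.19 (SE 0.057; limma adjusted p = 0.091).

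Across the list the intervals were narrow. The 95% interval, not adjusted for the number of genes, lay within 1.2-fold in either direction for 25 of 40 genes and within 1.3-fold for 38, the exceptions being Dnajb11 and Txndc5. It lay within 1.5-fold for all 40. Folds on these arrays are on the scale of the deposited log2 values, which understate changes of dim genes.

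**Figure D3:**
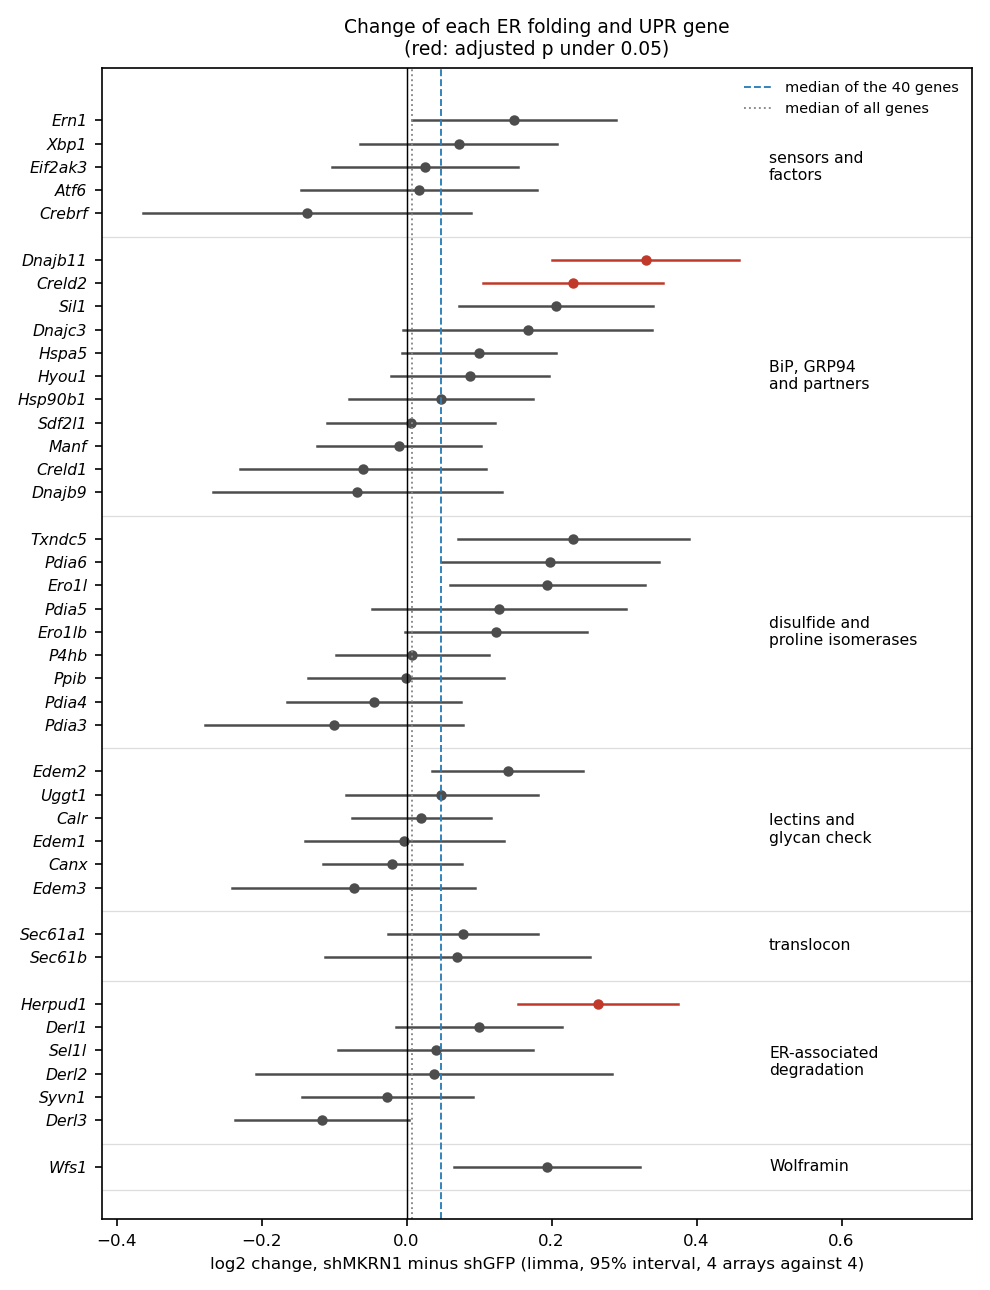
Log2 change of each of the 40 ER genes in shMKRN1 against shGFP with its 95% interval (limma, 4 arrays against 4), grouped by role; red marks a limma adjusted p under 0.05. Dnajb11, Creld2 and Herpud1 are red, and the dashed line (median of the 40 genes, 0.05) lies close to the dotted line (median of all genes, 0.01).

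Many ER genes shared their lowest array within a group. Averaged over the 40 genes, as the difference on the log2 scale from each gene's mean in shGFP, shGFP 1, 3, 5 and 7 stood at 0.02, 0.01, 0.03 and -0.06. In shMKRN1 2, 4, 6 and 8 this mean was 0.09, 0.11, 0.07 and -0.004. Array shMKRN1 8 thus lay within the range of the controls, and shGFP 7 below all other arrays. The mean of all genes, computed alike, stayed between -0.02 and 0.05. In 24 of the 40 genes shGFP 7 was the lowest control (60%, beside 32% of all genes), in 31 shMKRN1 8 was the lowest knockdown array (77.5%, beside 34.3%), and in 22 both held (55%, beside 21.8%). With each array centred on its median, both held in 26 genes (65%, beside 32%). These arrays also stood apart over all genes, at 23.2 and 7.46 on the leading principal component, against -3.45 to 6.20 for the other shGFP and -15.2 to -6.02 for the other shMKRN1 arrays. The labels give no batch, and the part of these arrays' quality in the ER levels was not tested. Without both arrays the 3 calls stood, as given above. That fit drops the low array of each group alike, so it cannot tell the part of array quality.

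**Figure D4:**
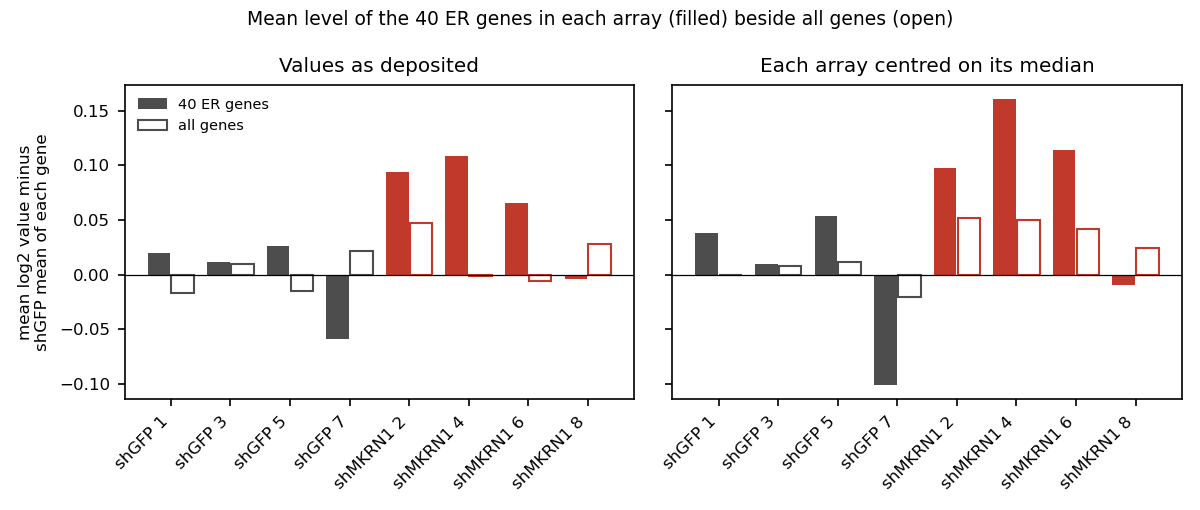
Mean over the 40 ER genes (filled bars) and over all genes (open bars) of the difference, on the log2 scale, between the array and the gene's mean in shGFP, for the values as deposited and with each array centred on its median; grey is shGFP and red shMKRN1. As deposited, shGFP 7 (-0.06) is the lowest bar of the ER genes and shMKRN1 8 (-0.004) lies with the controls, while shMKRN1 2, 4 and 6 lie at 0.07 to 0.11.

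Genes of the same compartment outside the list were read from lists of ER function. Of 35 other ER folding factors, 3 rose and none fell (8.57%, beside 5.48% of genes above the median level), with a median change of 0.11 and a higher mean in 30 of 35. These were Cnpy2 (0.35, limma adjusted p = 0.0159), a saposin-like ER protein, Rcn3 (0.29; 0.0176), a calcium-binding reticulocalbin, and Clgn (0.35; 0.0236), the calnexin relative known from testis. An unadjusted p under 0.05 by limma was found in 14 of the 35, all higher, a share of 40% beside 25% of the 40 genes above. With the higher mean in shMKRN1, such a p was found for 13.7% of all genes and 21% of those above the median level. The list's count was 0 without shGFP 3 or shMKRN1 6, 1 without shMKRN1 2, and 5 without shGFP 5 or shMKRN1 8, while its median stayed between 0.09 and 0.13. The count was 9 of 27 when only genes above the median level were tested, where 12.9% of genes were higher. With array weights it was 10 of 35, where 9.7% were. As this list was chosen with earlier results of these data known, these shares are not read as a result about ER folding factors. Of 21 other translocation genes, 2 rose, the signal recognition particle receptor gene Srpr (0.28; 0.0161) and the signal peptidase subunit gene Sec11a (0.24; 0.0374). That is 9.52%, beside 5.48% of genes above the median level. An unadjusted p under 0.05 by limma was found in 9 of the 21, 8 higher and 1 lower (42.9%, beside 27.3% of genes above the median level). The median change was 0.09, and it was 0.05 without shGFP 7. The call of Sec11a was lost without any 1 array (0.0565 to 0.107), and that of Srpr without shGFP 3, shMKRN1 2 or shMKRN1 6 (0.0574 to 0.0649). Of 25 other ERAD genes Jkamp alone rose (4%; 0.29, limma adjusted p = 0.0463, kept without shGFP 5 only). An unadjusted p under 0.05 was found in 7 of the 25, 5 higher and 2 lower. Of 15 other signalling genes Atf6b alone rose, the relative of Atf6 (6.67%; 0.28, limma adjusted p = 0.0389, kept without shGFP 5 or shMKRN1 8 only). Such an unadjusted p was found in 5 of the 15, all higher.

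Of 14 genes listed for the PERK arm downstream of its sensor, 4 rose and none fell. That is 28.6%, beside 3.66% of all genes and 5.48% of those above the median level, where 11 of the 14 lie. The median was 0.16, with a higher mean in all 14. This list was chosen with earlier results of these data known, so the share is not read as a result about the PERK arm. Atf4, its transcription factor, read 8.24, 8.16, 8.11 and 8.05 in shGFP and 8.42, 8.47, 8.47 and 8.44 in shMKRN1 (0.31, SE 0.054; limma adjusted p = 0.0134, and 0.0551 without shMKRN1 6). Nupr1, a stress-induced chromatin protein gene, rose by 0.29 (adjusted p = 0.0227, lost without shGFP 1 or shMKRN1 2, 4 or 6 at up to 0.0723), beside Ddit4 and Chac1 at 0.63 each. The classical ER stress marker Ddit3 (CHOP) changed by 0.12 (adjusted p = 0.525), Trib3 by 0.19 (0.116), Atf3 by 0.07 (0.785) and Ppp1r15a by 0.04 (0.871). Adjusted over every probe set, the calls of Clgn, Sec11a, Jkamp, Atf6b and Nupr1 were lost (0.0555 to 0.0979). Differences between these lists and the 40 genes were not tested. No gene passed in ER to Golgi transport (26 genes, median 0.03, 4 with an unadjusted p under 0.05 by limma) or among ER calcium genes (9 genes, median 0.03, 3 with one). Among chaperones of other compartments, Bag3 (0.26; 0.0417) alone rose of 21 cytosolic genes, a call lost without any 1 array (0.0526 to 0.119). None of 13 mitochondrial chaperone and protease genes passed (4 had an unadjusted p under 0.05).

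**Figure D5:**
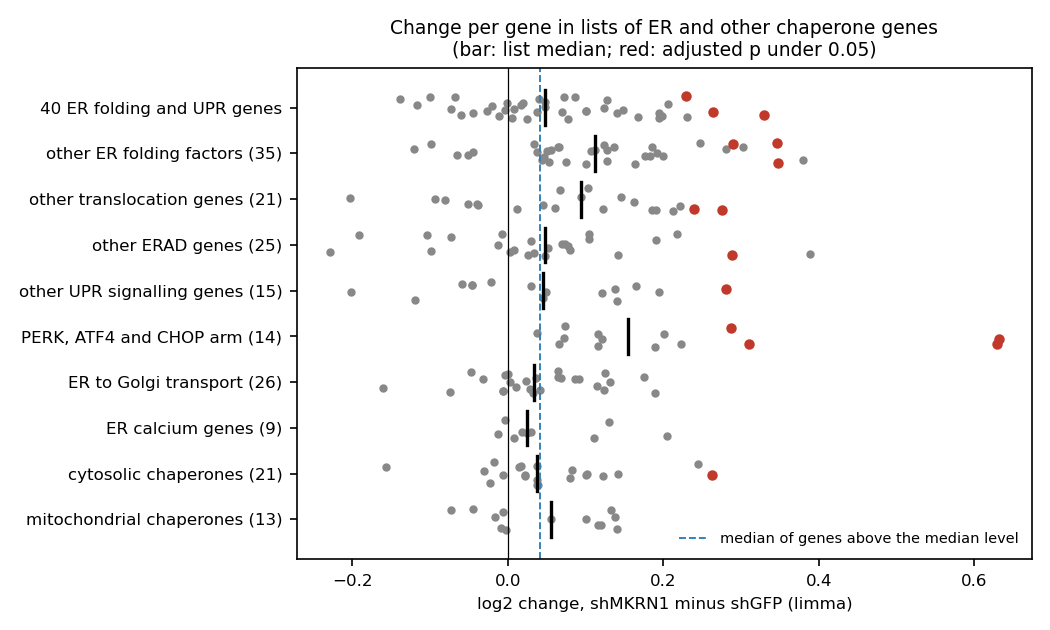
Log2 change of each gene (shMKRN1 against shGFP, limma) in the 40 ER genes and in 9 further lists, with the number of measured genes in brackets; black bars are list medians and red points have a limma adjusted p under 0.05. The medians run from 0.03 (ER calcium) to 0.16 (PERK, ATF4 and CHOP arm), and the dashed line at 0.04 is the median of all genes above the median level.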

How the data were processed

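Total RNA was hybridised to 8 Affymetrix gene arrays, 4 per hairpin. The authors deposited 34760 probe sets as log2 expression, computed with RMA per the submitters' processing notes (version: not given in the sources used here). As a method, RMA brings arrays to a common scale, so a change shared by most genes is not visible. Array medians lay between 7.14 and 7.24. Symbols came from the platform annotation: 21640 probe sets had 1 symbol, 1321 several (not used) and 11799 none here. All columns belonged to the 8 samples.

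Differences were fitted with limma 3.58.1 in R 4.3.3 (6 residual and 4 prior degrees of freedom, no covariate, no filter), two-sided, with Benjamini-Hochberg adjustment over 19937 genes and a threshold of 0.05. Intervals are 95% and unadjusted. The fit was run on simulated arrays with independent noise for each gene, which do not cover shifts that genes share within an array. Members, lists and motifs were chosen with earlier results of these data known. Values in every array are given for members past the threshold, those with an unadjusted p under 0.05, Ern1, Atf6, Eif2ak3, Xbp1 and Hspa5, and of each list up to 4 genes past the threshold with the smallest p are named. Calr4, Acacb, Lgalsl and further list genes were named after their values were seen. Planned counts of protein motifs were not run, as no protein table was used here. Alternatives were 2 further scalings, a level filter, array weights, a variance trend, other probe set rules and arrays left out.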

Additional observations from a re-analysis of the deposited data

Results flagged for a closer look

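Dixon's ratio was computed for each of the 40 ER genes in each group of 4 arrays, 80 groups in all, of which chance marks about 1 in 20. It marked 2 values, both in array shMKRN1 8. Eif2ak3 was at 8.52 in that array and between 8.63 and 8.65 in the other shMKRN1 arrays. Sil1 was at 8.66 there and at 8.63 in each of the others, a gap that is small in size and large only beside the near-identical values of the other 3 arrays.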

How the results depend on the processing

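No paired fit was run, because the groups share no replicate number and the labels tie no shGFP sample to a shMKRN1 sample. The sample numbers alternate between the groups, so shGFP 7 and shMKRN1 8 are neighbours in that order. Whether neighbouring samples were handled together is not stated, and its part was not tested. Of all genes, 729 were higher and 167 lower as reported. The counts were 1285 and 310 where genes below the median level were dropped, 1933 and 824 with array weights, 1228 and 320 with a variance trend and 321 and 57 adjusted over every probe set, and quantile normalization gave 290 lower. With 1 array left out they lay between 256 and 650 higher and between 52 and 230 lower. Of the ER genes, 3 were higher, 8 where genes below the median level were dropped, 7 with array weights, 2 adjusted over every probe set (not Creld2) and 0 to 3 with 1 array left out, and none was lower under any of these settings. Their median of 0.05 lay between 0.03 and 0.09 with 1 array left out. Mkrn1 kept its call throughout (-0.64 to -0.57).

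Changes near 0 turned sign, all without passing the test. By quantile normalization these were Sdf2l1 (-0.015), Canx (0.005), Atf6 (-0.02), Eif2ak3 (-0.002) and Ppib (0.013). By median centring they were Edem1 (0.022), Manf (0.014), Canx (0.005) and Ppib (0.024), and by array weights Sdf2l1 (-0.017), Manf (0.023) and Ppib (0.007). Without shGFP 7 and shMKRN1 8 they were Manf (0.019), Derl2 (-0.002) and Ppib (0.021). With 1 array left out the ranges that crossed 0 were those of Dnajb9 (-0.13 to 0.019), Edem1 (-0.042 to 0.035), Sdf2l1 (-0.023 to 0.025), Manf (-0.035 to 0.009), Ppib (-0.038 to 0.037), Sel1l (-0.007 to 0.066), Atf6 (-0.038 to 0.067), Eif2ak3 (-0.006 to 0.057), Derl2 (-0.061 to 0.097) and P4hb (-0.008 to 0.022). The cause was not tested. With 4 arrays per group, changes of the size seen here lie near what the test can call.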

Other observations

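Outside the list, 11 measured genes hold ERSE in their promoter windows, of which 2 rose, and 7 hold ERSE-II, of which 1 rose. Calr4, a relative of calreticulin that holds ERSE, had the largest change among the measured genes with either element. It lay at 6.12, 6.01, 5.96 and 5.83 in shGFP 1, 3, 5 and 7, inside the range of the receptor genes, and at 6.62, 6.73, 6.53 and 6.68 in shMKRN1 2, 4, 6 and 8, just above its upper bound of 6.5. The change was 0.66 (SE 0.071; limma adjusted p = 0.00154), and the call held without each array in turn (adjusted p up to 0.00894). As the control level is that of silent genes, a fold is not read from it. Calr itself, which also holds ERSE, changed by 0.02.

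Acacb, an acetyl-CoA carboxylase gene with ERSE, rose by 0.25 (limma adjusted p = 0.0336, kept without shGFP 7 only). Lgalsl, a galectin-like gene with ERSE-II, rose by 0.21 (0.0431), a call lost without any 1 array (0.0541 to 0.126). Median changes were -0.03 for the 11 other ERSE genes and 0.10 for the 7 other ERSE-II genes. These genes were named after their values were seen, and no test of the elements was made.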
